A study of Homo sapiens with 6 samples.

Results

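The DNA replication machinery was followed in A673/TR/shEF cells as 47 genes, chosen by name from the 26364 gene symbols of the expression table. The list covers the proteins that mark and license replication origins, the helicase that opens the DNA, the primase and polymerases, the sliding clamp and its loader, the proteins that bind single strands and join fragments, the enzymes that supply nucleotides, and UHRF1. A673 is a cell line from Ewing sarcoma, a tumour driven by the fusion transcription factor EWSR1::FLI1, and the A673/TR/shEF derivative carries an shRNA against the fusion that doxycycline switches on. Untreated samples, written as EWSR1::FLI1 high or controls (n = 3), were compared with samples given 1 µg/mL doxycycline for 72 h, written as EWSR1::FLI1 low (n = 3). All 6 samples carried the shRNA construct and grew with blasticidin and zeocin. No line without the shRNA was given doxycycline among the samples analysed here, so an effect of the drug and an effect of the knockdown cannot be told apart. The deposited design calls the samples clones while their titles number experiments, with the same numbers in both groups. If they were repeats on a single culture, the p-values would measure spread between repeats, not between clones. The reported test does not pair samples by number.

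Before a cell divides, the origin recognition complex binds DNA and, with CDC6 and CDT1, loads the MCM2-7 ring as an inactive helicase. At the start of S phase the kinase CDC7 and the factors MCM10, CDC45 and GINS turn that ring into a moving helicase. DNA polymerase alpha with its primase begins each strand, and polymerases delta and epsilon extend it on the PCNA clamp, which the RFC complex loads. Many of these genes are transcribed in waves under E2F factors, which the retinoblastoma proteins hold back in resting cells, and their transcript levels are widely read as signs of proliferation.

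Levels are given in FPKM, that is fragments scaled for gene length and library size, so that levels of different genes can be set beside each other. A fold change is the difference of mean log2(FPKM + 1), EWSR1::FLI1 low minus EWSR1::FLI1 high. Significance is an adjusted p under 0.01 by limma fitted over the 15504 genes with a mean of at least 0.5 FPKM. "Rose" and "fell" are kept for genes past that limit. All 47 replication genes passed the filter, with 65 to 4753 reads in any library.

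FLI1, which holds the 3′ part of the fusion transcript, was measured first. Its level was 11.3, 12.7 and 14.2 FPKM in the EWSR1::FLI1 high libraries and 2.91, 4.29 and 3.68 FPKM in the EWSR1::FLI1 low libraries. FLI1 fell by 1.57 on the log2 scale (SE 0.18, limma adjusted p = 0.000676), and the exact two-sided permutation test gave p = 0.1, the smallest that 3 against 3 samples allow. Every library therefore matched its label. Reads on the FLI1 symbol do not separate the fusion from unfused FLI1. The Ewing sarcoma markers CD99, STEAP1, LIPI and NR0B1 were at 22.2 FPKM or more in every EWSR1::FLI1 high library and NKX2-2 was at 3.92 to 5.77 FPKM, while the 9 leukocyte, endothelial and epithelial markers examined stayed at or below 1.56 FPKM in every library. Reads on genes ranged from 6980361 in EWSR1::FLI1 low replicate 1 to 16658933 in EWSR1::FLI1 low replicate 3. Replicate 1 of the EWSR1::FLI1 low group stood apart, since its FPKM values summed to 0.769 of the mean over libraries against 1.01 to 1.10 in the other 5, so the counts of genes past the limit are also given without it.

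The promoters of the replication genes are shown because the E2F site was more frequent in them than in all genes. Promoter sequence was not used to choose the genes. Many of them are known to be transcribed under E2F factors, however, so this frequency is no independent support. RefSeq windows on GRCh38.p14, from 250 bases before to 50 after the annotated start, were found for 40 of the 47 genes, with MCM4, MCM5, GINS4, POLD3, DNA2, RPA2 and RPA3 having no entry. Words of the E2F site (TTTCCCGC, TTTCGCGC, TTTGCCGC or TTTGGCGC, either strand) occurred in 20 of these 40 genes, against 3.99% of the 27305 genes in the table and 6.30% of the genes tested that had a window. The word was found in 10 of the 17 genes that fell and had a window and in 10 of the 23 that did not pass the test. Below are the stretches around the E2F words of MCM2 and PCNA, the usual markers of replicating cells, and of MCM6, which held the most words. MCM6 was picked after the counts were seen. Capitals mark E2F words and CCAAT boxes, the latter reading ATTGG on the other strand, and each sequence runs 5′ to 3′ on the strand of its gene.
MCM2 at chr3:127598383-127598435, plus strand: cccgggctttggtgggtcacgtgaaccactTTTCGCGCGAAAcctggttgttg
MCM6 at chr2:135876492-135876625, minus strand: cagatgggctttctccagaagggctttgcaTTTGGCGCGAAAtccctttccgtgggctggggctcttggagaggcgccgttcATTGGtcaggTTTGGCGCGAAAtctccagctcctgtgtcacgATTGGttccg
PCNA at chr20:5126644-5126711, minus strand: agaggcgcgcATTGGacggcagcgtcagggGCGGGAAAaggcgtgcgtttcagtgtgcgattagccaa

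MCM2 held 2 words, one at position 3 from the annotated start and the other, overlapping it on the opposite strand, at position 7. MCM6 held 2 such overlapping pairs, the first words of which lay at positions -152 and -90 from its start. The word of PCNA began at position -59. Across the list the words lay between positions -187 and 8.

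**Figure D1:**
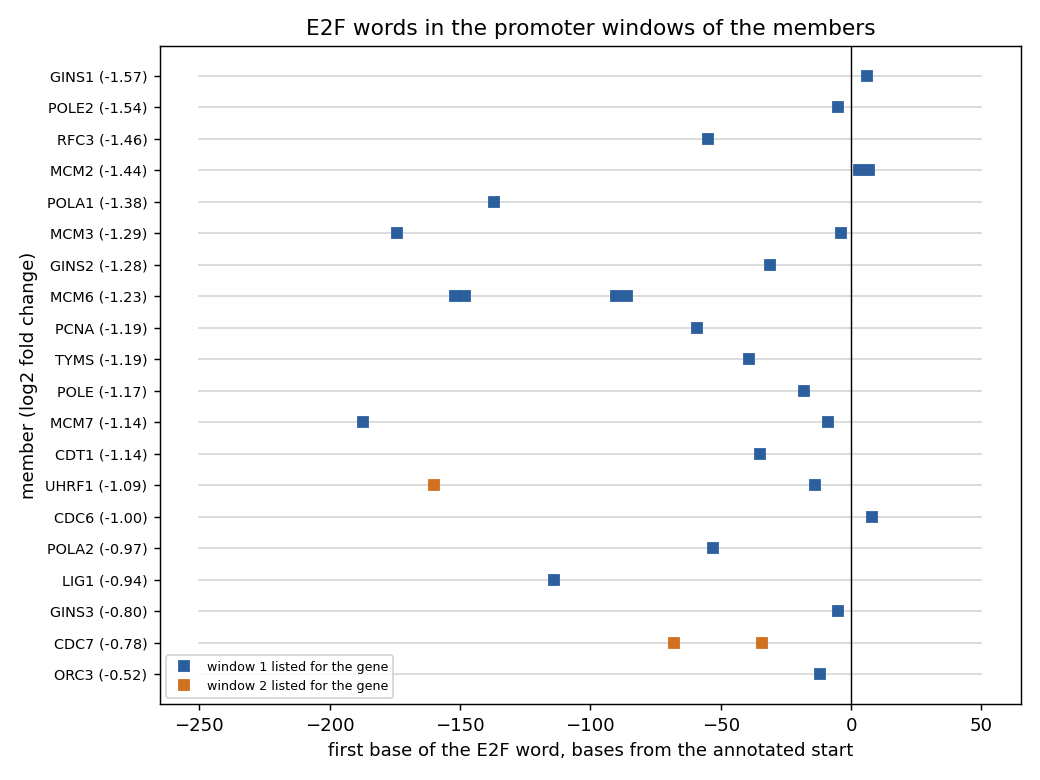
Position of E2F words in the promoter windows of the 20 replication genes that held one. The horizontal axis is the distance in bases from the annotated start to the first base of the word, each square is a word coloured by the window it lies in, grey lines span the window, and genes are ordered by log2 fold change (in parentheses), from GINS1 at -1.57 to ORC3 at -0.52.

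CCAAT boxes were in 24 of the 40 genes (60.0%, against 39.7% of all genes and 43.8% of the genes tested). The CHR word TTTGAA, known from genes of late cell cycle, was in 1 of the 40 (2.5%, against 18.2% and 15.2%). An ETS word (CCGGAAGT) was in 3 (7.5%, against 4.95% and 9.20%), and the repeat GGAAGGAA, of the kind EWSR1::FLI1 binds, was in 1 (2.5%, against 4.50% and 4.997%). These are matches of letters in a fixed window and do not show where a factor was bound. For comparison with the stretches above, the promoters of the 3 genes with the largest decreases and of the 3 with the smallest changes follow, from 250 bases before to 25 after the start. None of these 6 held an E2F word, so the extremes of the list were not set apart by it. RRM2 held 3 CCAAT boxes, at positions -123, -93 and -66, RPA1 held 2, PRIM1 and ORC1 held 1 each, and ORC4 and ORC5 held none.
PRIM1 (largest decrease), chr12:56752299-56752573, minus strand: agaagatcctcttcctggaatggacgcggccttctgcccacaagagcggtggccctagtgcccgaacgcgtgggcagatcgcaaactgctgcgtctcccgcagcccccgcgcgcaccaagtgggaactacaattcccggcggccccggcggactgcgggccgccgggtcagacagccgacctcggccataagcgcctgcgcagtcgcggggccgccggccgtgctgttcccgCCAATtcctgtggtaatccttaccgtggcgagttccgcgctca
RRM2 (next in decrease), chr2:10122489-10122763, plus strand: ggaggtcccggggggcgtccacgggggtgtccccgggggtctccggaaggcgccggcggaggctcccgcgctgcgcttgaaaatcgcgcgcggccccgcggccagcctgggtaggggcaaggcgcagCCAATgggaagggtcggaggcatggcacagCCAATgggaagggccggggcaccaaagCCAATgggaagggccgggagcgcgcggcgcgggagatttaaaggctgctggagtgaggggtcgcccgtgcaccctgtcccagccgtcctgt
ORC1 (next after RRM2), chr1:52404399-52404673, minus strand: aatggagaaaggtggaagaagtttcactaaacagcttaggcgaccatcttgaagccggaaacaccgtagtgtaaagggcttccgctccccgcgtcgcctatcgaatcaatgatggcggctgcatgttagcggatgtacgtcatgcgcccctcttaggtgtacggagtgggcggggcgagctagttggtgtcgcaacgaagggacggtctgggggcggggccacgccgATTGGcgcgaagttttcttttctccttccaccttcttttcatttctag
ORC4 (smallest change), chr2:148021527-148021801, minus strand: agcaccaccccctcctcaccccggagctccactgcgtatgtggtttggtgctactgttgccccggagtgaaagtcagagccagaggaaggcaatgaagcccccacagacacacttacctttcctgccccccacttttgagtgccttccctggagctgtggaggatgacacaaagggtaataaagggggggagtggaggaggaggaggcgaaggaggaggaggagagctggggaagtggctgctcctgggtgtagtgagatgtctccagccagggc
RPA1 (next smallest change), chr17:1829755-1830029, plus strand: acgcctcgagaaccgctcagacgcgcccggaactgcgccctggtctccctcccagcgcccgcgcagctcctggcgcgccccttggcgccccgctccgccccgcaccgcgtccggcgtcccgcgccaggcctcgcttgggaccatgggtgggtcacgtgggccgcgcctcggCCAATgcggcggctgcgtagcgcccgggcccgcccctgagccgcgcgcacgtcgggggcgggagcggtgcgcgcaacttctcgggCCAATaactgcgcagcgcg
ORC5 (next after RPA1), chr7:104207989-104208263, minus strand: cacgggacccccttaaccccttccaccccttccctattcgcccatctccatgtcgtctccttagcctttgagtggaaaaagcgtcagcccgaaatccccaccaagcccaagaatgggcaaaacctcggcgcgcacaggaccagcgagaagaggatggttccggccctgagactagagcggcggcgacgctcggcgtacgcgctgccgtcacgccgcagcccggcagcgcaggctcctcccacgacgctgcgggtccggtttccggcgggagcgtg

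Upon EWSR1::FLI1 knockdown, the mean of every one of the 47 replication genes on the log2(FPKM + 1) scale was lower in the reported fit. It was also lower in each of the 17 alternatives, but not all of these could differ in sign. The other filters, eBayes without trend and the replicate block leave the fold changes as they are. Median-ratio scaling used nearly equal factors for all libraries. Of them, 18 fell (38.3%, where 3.37% of all genes tested fell) and 0 rose (4.51% of all genes rose). Over all genes, the 522 that fell and 700 that rose became 689 and 415 without EWSR1::FLI1 low replicate 3. No replication gene had a higher mean, hence 0 were higher also at an unadjusted limma p under 0.05 and with limma-voom on recovered reads. At an adjusted p under 0.05, 38 of the 47 were lower (9.91% of all genes). In 44 genes every EWSR1::FLI1 low library was below every EWSR1::FLI1 high library, which held for 23.6% of all genes, and the exceptions were ORC3, RPA1 and TK1. The median fold change of the list was -1.14 on the log2 scale, beside -0.05 over all genes tested, and the range ran from -1.74 (PRIM1) to -0.38 (ORC4). With library factors taken from genes of mean FPKM 10 or more, the 2 medians were -0.93 and 0.11. In RNA from whole cultures, fewer cells in S phase and less transcript per cell cannot be told apart.

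The number of genes past the limit depended on single libraries. Without EWSR1::FLI1 high replicate 1, 2 or 3 it was 2, 1 and 1, where 1.26%, 1.08% and 0.992% of all genes tested fell, so that these counts are close to the background. Without EWSR1::FLI1 low replicate 2 it was 3 (1.82% of all genes), and without EWSR1::FLI1 low replicate 3 it was 33 (4.35%). Without EWSR1::FLI1 low replicate 1, the library that stood apart, it was 21 (5.41%). PRIM1 was past the limit in all 6 of these fits, and each of the other 17 missed it in at least 1, their highest limma adjusted p without a library lying between 0.0162 (POLE2) and 0.0533 (MCM7). Other processing settings at the same limit gave 8 to 42 genes, where 1.21% to 14.6% of all genes fell. At an adjusted p under 0.05 the 6 fits without a library held 17 to 45 replication genes, where 3.44% to 13.1% of all genes were lower, and their median fold change lay between -1.37 and -0.92.

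**Figure D2:**
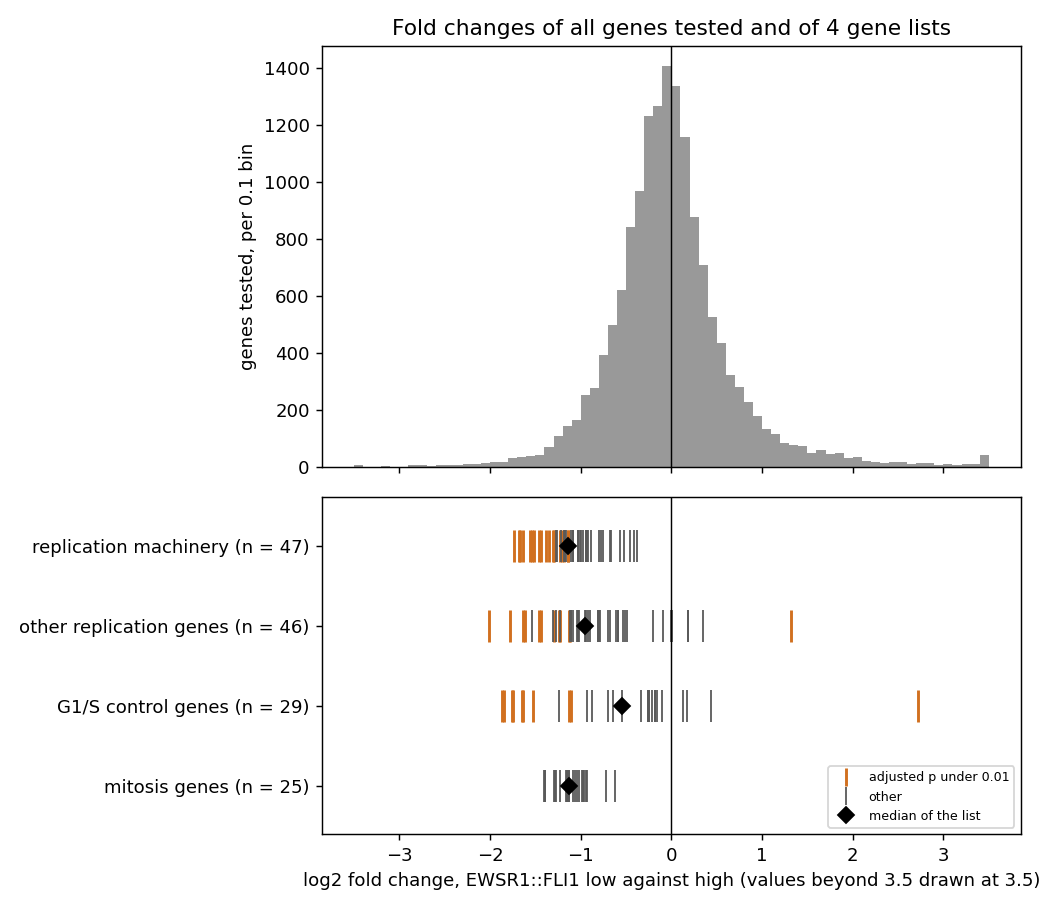
Fold changes on the log2(FPKM + 1) scale, EWSR1::FLI1 low against high. The upper panel counts all 15504 genes tested per bin of 0.1. In the lower panel each tick is a gene of the replication list or of the 3 comparison lists, orange where limma's adjusted p was under 0.01, and diamonds are medians, at -1.14 for the replication machinery, -0.95 for other replication genes, -0.54 for G1/S control genes and -1.13 for mitosis genes.

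The decrease differed between the 3 knockdown libraries. The median replication gene stood at 33.8% of its EWSR1::FLI1 high mean in EWSR1::FLI1 low replicate 1, at 39.1% in replicate 2 and at 62.7% in replicate 3. All 47 genes had their highest EWSR1::FLI1 low value in replicate 3, and 39 had their lowest in replicate 1. Replicate 3 was also the highest EWSR1::FLI1 high library for 43 of the 47. That library had the largest FPKM total of its group, 1.10 of the mean over libraries against 1.01 and 1.03. These counts were not made over all genes, so they are not shown to be particular to this list. Each percent uses the mean of all controls, not the control of equal number. Over all genes tested the order was the same, with medians of 86.1%, 93.9% and 100.7% in EWSR1::FLI1 low replicates 1, 2 and 3. FLI1 itself was at 22.9%, 33.8% and 29.0% of its EWSR1::FLI1 high mean in these libraries, so replicate 3, with the most replication transcripts left, was not the one with the most FLI1 left. With library factors taken from genes of at least 10 FPKM, the medians were 49.3%, 43.3% and 62.2%, so that replicates 1 and 2 changed places while replicate 3 remained the highest. On the values as deposited, the coefficient of variation was larger in the EWSR1::FLI1 low group for all 47 genes. Its median was 34.9% against 10.2% in the EWSR1::FLI1 high group. It was not computed after rescaling or over all genes, so it is not shown to be particular to this list.

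**Figure D3:**
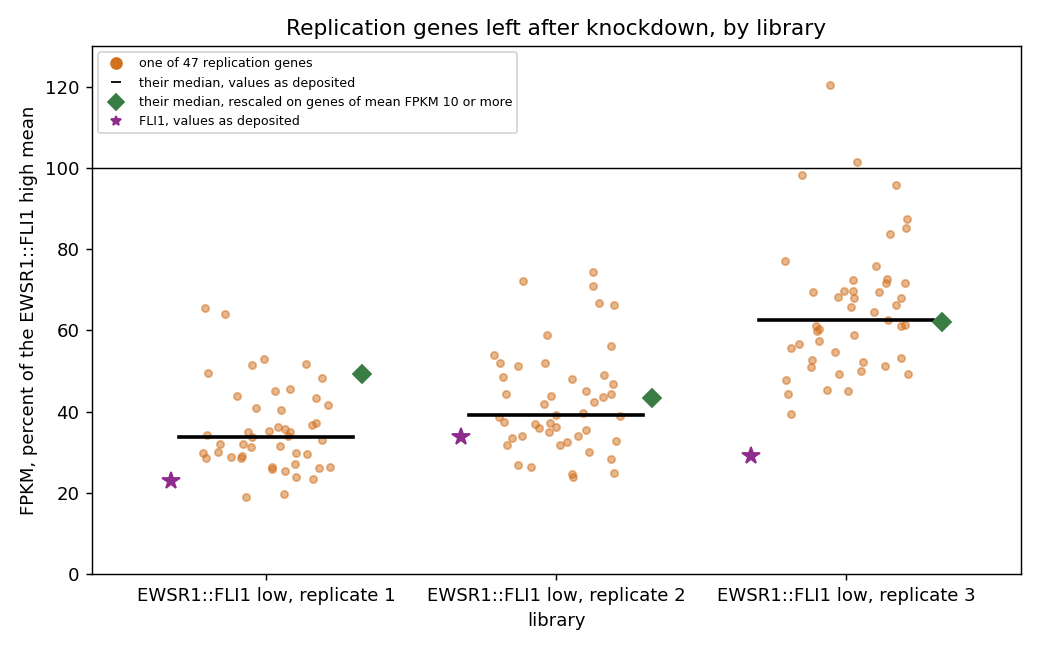
Replication genes left after knockdown. The vertical axis is FPKM as a percent of the EWSR1::FLI1 high mean, points are the 47 genes in each EWSR1::FLI1 low library, black bars their medians (33.8%, 39.1% and 62.7%), green diamonds the medians after rescaling on genes of mean FPKM 10 or more (49.3%, 43.3% and 62.2%) and purple stars FLI1 (22.9%, 33.8% and 29.0%).

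Origin recognition held the widest contrast within one complex. ORC1, the ATPase subunit whose amount varies through the cell cycle, fell, while the other 5 subunits did not pass the limit. ORC1 was at 31.3, 30.5 and 43.6 FPKM in the controls and at 6.96, 8.70 and 17.3 FPKM after knockdown, with no overlap. Its fold change was -1.67 (SE 0.31, limma adjusted p = 0.00711). ORC4, a core subunit, was at 17.8, 18.4 and 16.5 FPKM and at 11.5, 13.04 and 15.3 FPKM, a fold change of -0.38 with a 95% interval from -0.79 to 0.02. The groups did not overlap for ORC4 either, but its highest EWSR1::FLI1 low library came close to the lowest EWSR1::FLI1 high one. ORC6 (-1.16, limma adjusted p = 0.033) and ORC2 (-0.92, limma adjusted p = 0.0111) lay between, and ORC3 (-0.52) and ORC5 (-0.46) were near ORC4. ORC2 thus missed the limit narrowly, and ORC1 and ORC2 were each past it in 2 of the 6 fits without a library. The ratio of ORC1 to ORC4, which no scaling of libraries can change, was 2.02 ± 0.546 in EWSR1::FLI1 high and 0.800 ± 0.285 in EWSR1::FLI1 low (SD, n = 3). This ratio and those below were chosen after the values were seen and are given without a test.

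The helicase loaders CDC6 and CDT1 were both lower in every knockdown library. CDT1, which brings MCM2-7 to the origin, fell by 1.14 on the log2 scale (SE 0.21, limma adjusted p = 0.00727), from 8.94, 7.64 and 10.8 FPKM to 2.73, 3.37 and 4.82 FPKM. CDC6, the ATPase that works with it, went from 43.8, 44.4 and 57.5 FPKM to 15.4, 25.2 and 33.9 FPKM, a fold change of -0.998 (SE 0.28, limma adjusted p = 0.0373).

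The 6 subunits of the MCM2-7 helicase moved within a narrow band, from -1.44 to -1.14 on the log2 scale, although their levels differed. MCM2 (GRCh37 chr3:127317253-127341279, plus strand), whose E2F words are printed above, was at 57.0, 55.5 and 75.8 FPKM in the controls and at 16.2, 21.1 and 32.1 FPKM after knockdown. Every knockdown library was below every control, and MCM2 fell by 1.44 on the log2 scale (SE 0.26, limma adjusted p = 0.00654). MCM7 changed least of the ring and still fell, from 79.5, 75.1 and 82.2 FPKM to 27.1, 33.1 and 48.3 FPKM (fold change -1.14, SE 0.23, limma adjusted p = 0.0095). MCM3 (-1.29) and MCM6 (-1.23) fell as well. MCM5 (-1.26, limma adjusted p = 0.0163) and MCM4 (-1.21, limma adjusted p = 0.0137) had similar fold changes and missed the limit. MCM3 was the most abundant subunit in EWSR1::FLI1 high, at 149 FPKM, and MCM6 the least, at 47.1 FPKM.

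**Figure D4:**
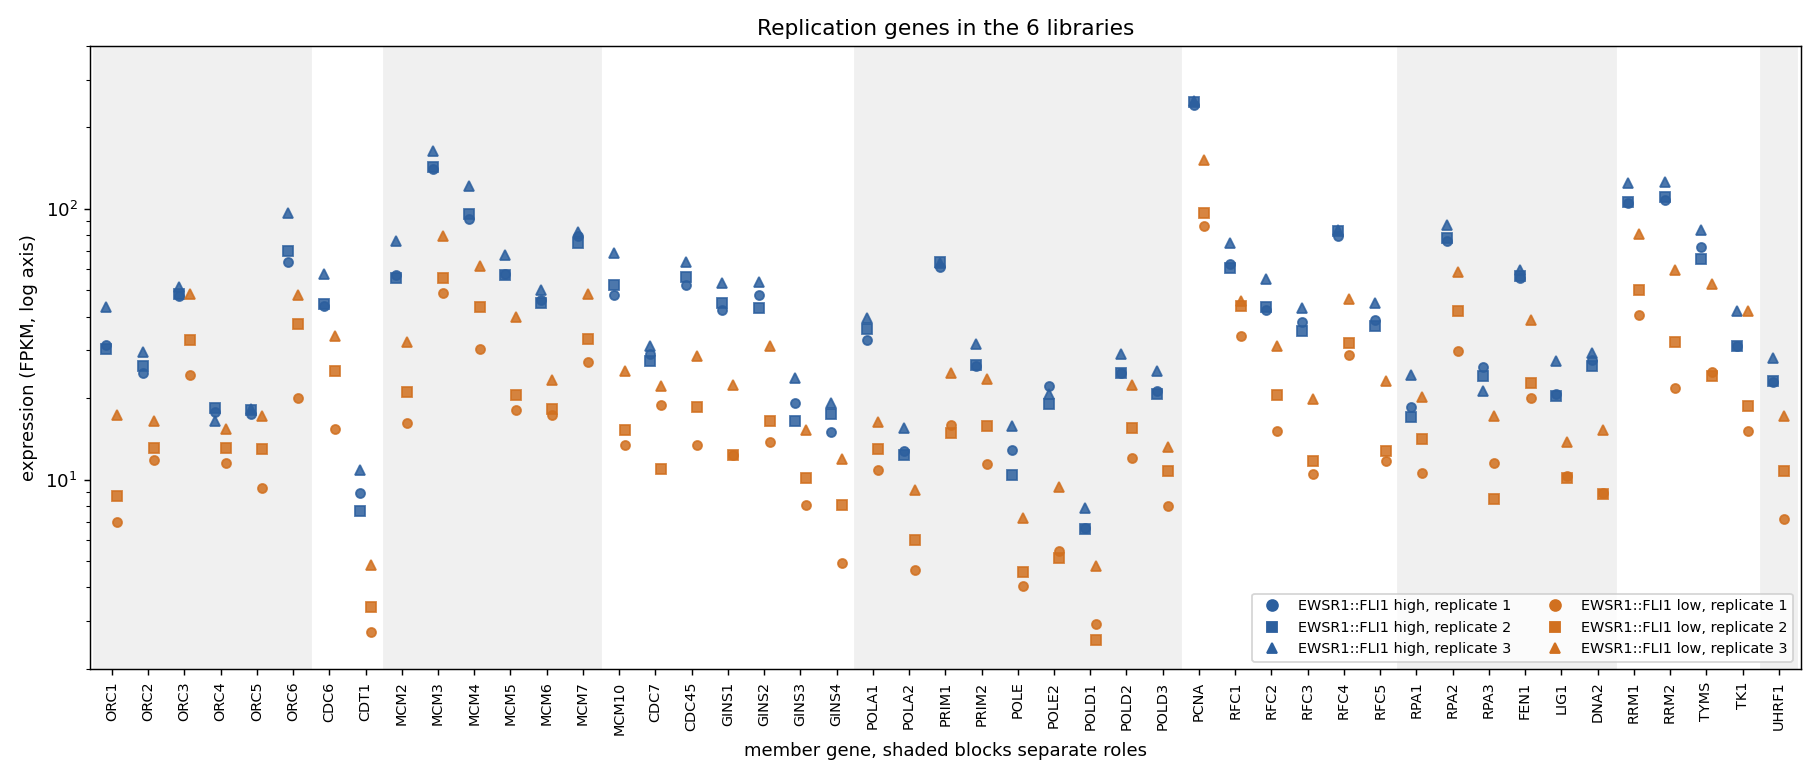
Levels of the 47 replication genes in the 6 libraries, in FPKM on a log axis, grouped by role in shaded and white blocks. Blue symbols are EWSR1::FLI1 high and orange symbols EWSR1::FLI1 low libraries, with circles, squares and triangles for replicates 1, 2 and 3. In 44 genes all orange symbols lie below all blue ones, and the orange triangle is the highest orange symbol in all 47.

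Among the activators of the helicase, MCM10, GINS1 and CDC45 fell. MCM10, needed for the assembled helicase to start moving, was at 48.0, 52.5 and 69.0 FPKM and at 13.5, 15.2 and 25.1 FPKM, a fold change of -1.63 (SE 0.26, limma adjusted p = 0.00336). CDC45 (-1.52), which joins MCM2-7 and GINS in the active helicase, fell with GINS1 (-1.57). The other GINS subunits, which form one complex with GINS1, had fold changes of -1.28 (GINS2), -1.03 (GINS4) and -0.80 (GINS3), and none passed the limit. CDC7, the kinase that triggers activation, changed least, from 29.2, 27.5 and 31.3 FPKM to 18.8, 11.0 and 22.2 FPKM, a fold change of -0.78 (SE 0.25, limma adjusted p = 0.0621). CDC7 was lowest in EWSR1::FLI1 low replicate 2, unlike most of the list.

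Subunits of one polymerase complex differed in size of change. PRIM1 (GRCh37 chr12:57124222-57146158, minus strand), the catalytic primase subunit, had the largest decrease of the 47. PRIM1 was at 60.9, 63.6 and 63.1 FPKM in the controls and at 15.8, 14.9 and 24.7 FPKM after knockdown, so the controls lay close together and far above all knockdown libraries. It fell by 1.74 on the log2 scale (SE 0.22, limma adjusted p = 0.00102). Of its exon bases 139 (4.20%) are shared with NACA on the same strand, a gene at 233 FPKM on average. PRIM2, the regulatory primase subunit, had a fold change of -0.75 (limma adjusted p = 0.0711), and its counts are uncertain because near-identical copies of the gene exist in the genome. The ratio of PRIM1 to PRIM2 was 2.24 ± 0.210 in EWSR1::FLI1 high and 1.13 ± 0.233 in EWSR1::FLI1 low (SD, n = 3).

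POLA1 (-1.38), the catalytic subunit of polymerase alpha, and POLE2 (-1.54), an accessory subunit of polymerase epsilon, fell too. POLE, its catalytic subunit, was just outside the limit (-1.17, limma adjusted p = 0.0101). For polymerase delta, POLD3 (-1.03) and POLD1 (-0.89) had larger changes than POLD2, and none of the 3 passed. POLD2 was at 24.8, 24.8 and 29.2 FPKM and at 12.0, 15.5 and 22.4 FPKM, a fold change of -0.67 (SE 0.24, limma adjusted p = 0.0792). POLD1, the catalytic subunit, was the least abundant of the 47 genes in both groups, at 7.01 ± 0.712 and 3.41 ± 1.20 FPKM (SD, n = 3).

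Of the sliding clamp and its loader, 4 of 6 genes fell. PCNA (GRCh37 chr20:5095599-5107272, minus strand) was the most abundant replication gene in both groups. Its level was 243, 249 and 250.04 FPKM in EWSR1::FLI1 high and 86.7, 96.2 and 151 FPKM in EWSR1::FLI1 low. The controls were within a few percent of each other and all knockdown libraries lay far below, with EWSR1::FLI1 low replicate 3 the nearest. PCNA fell by 1.19 on the log2 scale (SE 0.22, limma adjusted p = 0.00716). RFC3, a small subunit of the loader, fell most, from 38.1, 35.3 and 43.0 FPKM to 10.5, 11.7 and 19.8 FPKM (fold change -1.46, SE 0.25, limma adjusted p = 0.00452). RFC5 (-1.35) and RFC4 (-1.20) fell and RFC2 (-1.09) did not pass. RFC1, the large subunit, was at 62.6, 60.4 and 75.0 FPKM and at 34.0, 43.8 and 45.8 FPKM, a fold change of -0.67 (SE 0.19, limma adjusted p = 0.0402).

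Only DNA2, a nuclease and helicase that trims long flaps, fell among the 6 genes that bind single strands or finish fragments. DNA2 was at 27.7, 26.3 and 29.3 FPKM in the controls and at 8.92, 8.83 and 15.2 FPKM after knockdown (fold change -1.30, SE 0.23, limma adjusted p = 0.00531). RPA1, the large subunit of the single-strand binding protein RPA, changed least, with 18.5, 17.0 and 24.3 FPKM against 10.6, 14.2 and 20.2 FPKM. Its groups overlapped, and the fold change was -0.42 with a 95% interval from -0.99 to 0.16. RPA3 (-0.94) and RPA2 (-0.93), the smaller subunits, lay near LIG1 (-0.94), the ligase that seals the fragments, and FEN1 (-1.10), the flap nuclease, and none of these passed the limit. The ratio of MCM2 to RPA1 was 3.15 ± 0.0952 in EWSR1::FLI1 high and 1.54 ± 0.0486 in EWSR1::FLI1 low (SD, n = 3), with little spread within either group.

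Nucleotide supply held one of the largest and one of the smallest changes of the list. RRM2 (GRCh37 chr2:10260825-10351851, plus strand), the small subunit of ribonucleotide reductase made in S phase, was at 107, 110 and 125 FPKM in the controls and at 21.9, 32.3 and 59.7 FPKM after knockdown. The groups were far apart, and RRM2 fell by 1.68 on the log2 scale (SE 0.32, limma adjusted p = 0.008). RRM1, the large subunit, had a fold change of -1.01 (limma adjusted p = 0.0258), and the ratio of RRM2 to RRM1 was 1.02 ± 0.0190 against 0.640 ± 0.0971 (SD, n = 3). TYMS, thymidylate synthase, had a fold change of -1.19 (limma adjusted p = 0.0243), with 39.9% of its exon bases shared with ENOSF1 on the opposite strand. Whether strand was used in the counting is not given in the sources used here, and ENOSF1 averaged 3.18 FPKM against 53.8 FPKM for TYMS. TK1, the thymidine salvage kinase, was at 31.2, 31.1 and 41.8 FPKM and at 15.1, 18.7 and 41.8 FPKM. Its EWSR1::FLI1 low replicate 3 lay within the range of the controls, and the fold change was -0.57 with a 95% interval from -1.35 to 0.21. The ratio of TK1 to TYMS was accordingly higher after knockdown, at 0.725 ± 0.104 against 0.469 ± 0.0367 (SD, n = 3).

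UHRF1, which binds hemimethylated DNA behind the fork and recruits the maintenance methyltransferase, was at 23.0, 23.2 and 28.1 FPKM in the controls and at 7.16, 10.8 and 17.2 FPKM after knockdown. The groups did not overlap, and its fold change was -1.09 (SE 0.28, limma adjusted p = 0.0276).

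**Figure D5:**
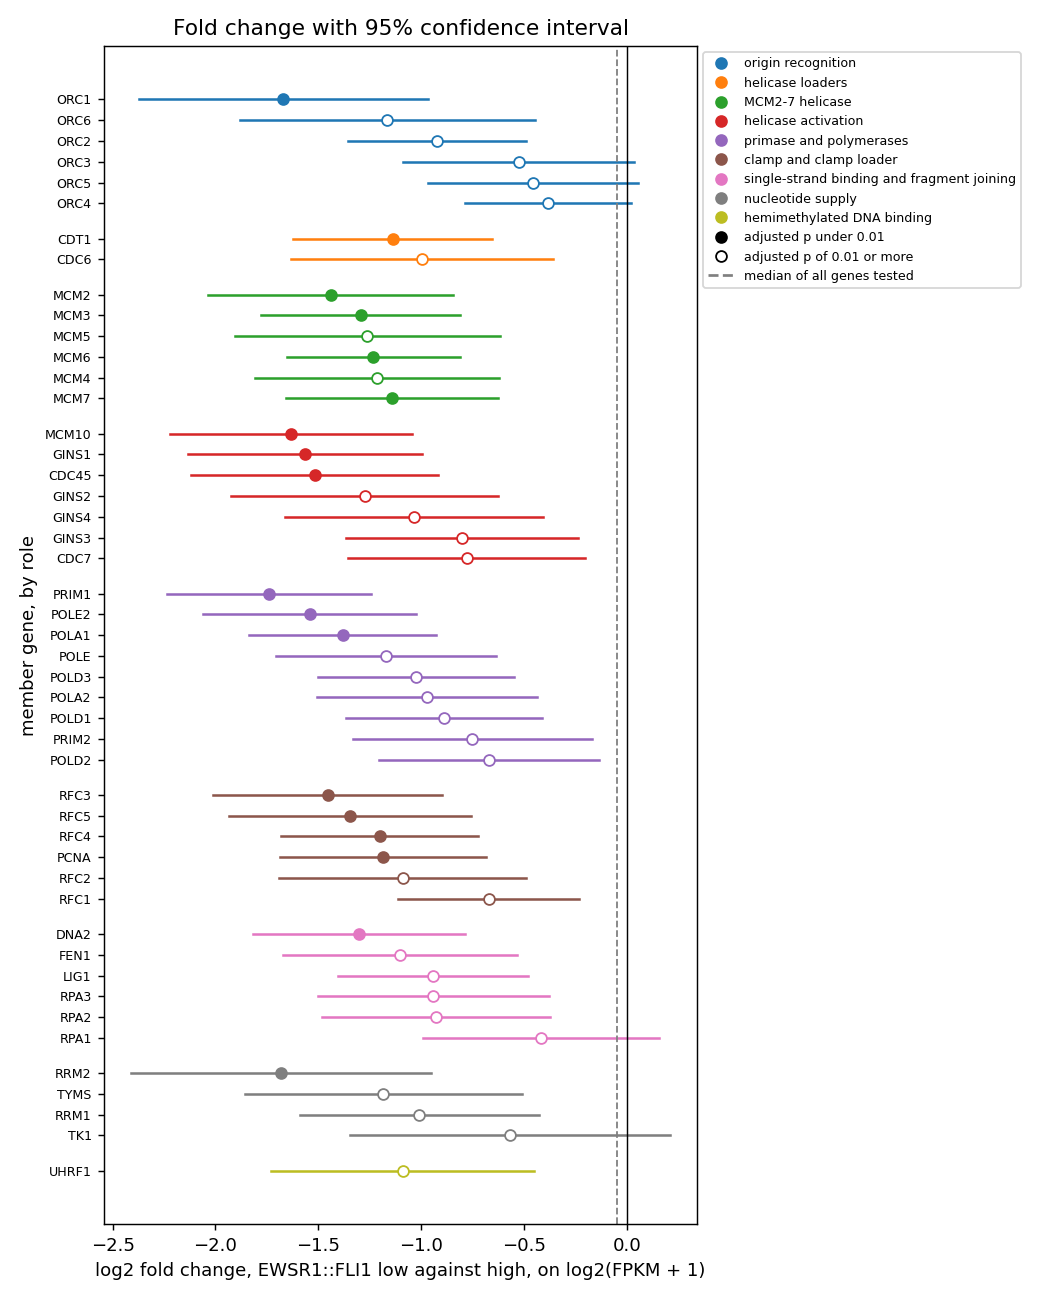
Log2 fold change on log2(FPKM + 1), EWSR1::FLI1 low against high, for the 47 replication genes with 95% confidence intervals from limma, coloured and blocked by role. Filled circles mark the 18 genes with an adjusted p under 0.01, open circles the other genes, and the dashed line the median of all genes tested (-0.05). The intervals of ORC3, ORC4, ORC5, RPA1 and TK1 reach past 0.

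Beyond the core list, 46 other genes of replication were tested, comprising accessory polymerase subunits, fork stabilisers, chromatin assembly factors and nucleotide enzymes. Of these, 11 fell (3.37% of all genes), 1 rose (4.51% of all genes) and 34 did not pass, with a median of -0.95. The 11 became 2, 1 and 1 without EWSR1::FLI1 high replicate 1, 2 or 3, and 15, 4 and 22 without EWSR1::FLI1 low replicate 1, 2 or 3. The largest decreases were those of EXO1 (-2.02), an exonuclease of replication and mismatch repair, DSCC1 (-1.79), of an alternative clamp loader, and CHAF1A (-1.63), the large subunit of the CAF-1 chromatin assembly complex, of which DSCC1 kept the limit in 4 and CHAF1A in 3 of the 6 fits without a library. EXO1 went from 47.7, 50.5 and 64.1 FPKM to 10.9, 9.54 and 18.6 FPKM, with no overlap, and remained past the limit whichever library was left out. POLD4, the small accessory subunit of polymerase delta, was the gene that rose. It is named because it stood alone, after its values were seen. POLD4 was at 1.79, 1.57 and 2.27 FPKM in the controls and at 4.28, 7.69 and 6.96 FPKM after knockdown, a fold change of 1.32 (SE 0.22, limma adjusted p = 0.00402), opposite in sign to POLD1, POLD2 and POLD3, and it was past the limit in 2 of the 6 fits without a library, with a highest limma adjusted p of 0.0254. RRM2B, the reductase subunit used outside S phase, had a fold change of 0.18 that did not pass (limma adjusted p = 0.605), and the ratio of RRM2 to RRM2B was 19.3 ± 4.90 in EWSR1::FLI1 high and 5.13 ± 1.46 in EWSR1::FLI1 low (SD, n = 3).

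Among 29 genes that control entry into S phase, 9 fell (3.37% of all genes) and 1 rose (4.51% of all genes), with a median of -0.54. The 9 became 5, 4 and 4 without EWSR1::FLI1 high replicate 1, 2 or 3, and 9, 5 and 11 without EWSR1::FLI1 low replicate 1, 2 or 3. CDK6, a kinase that acts on the retinoblastoma protein, rose from 3.90, 5.19 and 5.67 FPKM to 40.8, 34.4 and 37.9 FPKM (fold change 2.72, limma adjusted p = 6.97e-05). CCND1 (-1.87), the cyclin D1 partner of that kinase, and E2F2 (-1.85), an activating E2F factor, fell. The other E2F genes of the list were looked up after their values were seen, because of the E2F words above. E2F1 fell from 13.5, 11.5 and 14.9 FPKM to 2.79, 3.34 and 4.82 FPKM (fold change -1.64, limma adjusted p = 0.000999). E2F5 (-1.53) and E2F8 (-1.11) fell as well. E2F3 (-0.54), E2F4 (-0.25), E2F6 (-0.64) and E2F7 (0.13) did not pass the limit. A link between E2F levels and the replication genes was not tested.

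All 25 genes of mitosis examined had negative fold changes. By limma, 0 of 25 passed an adjusted p of 0.01 in either direction. At an unadjusted limma p under 0.05, 24 were lower (2900 of the 15504 genes tested), and 21 at an adjusted p under 0.05 (9.91% of all genes). With limma-voom on recovered reads 9 passed the limit (5.64% of all genes fell). Without EWSR1::FLI1 low replicate 1 or 3, the count at an adjusted p of 0.01 by limma was 2 and 22 (5.41% and 4.35% of all genes). In 24 of the 25, every knockdown library was below every control (23.6% of all genes), and the median was -1.13 with a range from -1.40 to -0.62. The median mitosis gene was at 31.5%, 39.3% and 72.2% of its EWSR1::FLI1 high mean in EWSR1::FLI1 low replicates 1, 2 and 3, beside 33.8%, 39.1% and 62.7% for the replication machinery. A difference between the lists was not tested.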

How the data were processed

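RNA from 3 untreated and 3 doxycycline-treated A673/TR/shEF samples was depleted of ribosomal RNA and sequenced. The submitters' processing notes name STAR 2.5.0b, Cufflinks 2.2.1, DESeq2 1.6.3 and GRCh37. FPKM values per gene symbol and library were deposited by the authors. From their comparison table, only the mean signal per gene (mean normalized count) deposited by the authors was used, to recover reads: 100% of values were whole within 0.1 reads, and the FPKM values already carried a factor per library. Its fold changes, errors, Wald scores and p-values were not used. Library depth was 6980361 to 16658933 reads on genes, and a pseudocount of 1 damps the fold changes of low genes.

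Only genes averaging 0.5 FPKM or more entered the test, which was made on log2(FPKM + 1) with limma 3.58.1 (R 4.3.3, eBayes with trend) without a replicate term, and p-values were adjusted by Benjamini-Hochberg over all genes tested. The script was tested on simulated data. There, 48% of the 200 genes changed by 1.5 on the log2 scale passed the limit, and 1 unchanged gene did. A gene that did not pass is therefore not shown to be unchanged. The members and lists were chosen with earlier results of these data known, so they are no independent support. Values per library are given for MCM2, PCNA, RRM2 and the largest and smallest absolute change in each role. In other lists the 3 largest changes past the limit are named. The alternatives were another pseudocount, filters, normalizations, weights, voom, a replicate block, a limit of 0.05 and leaving out each library. Coordinates are from GENCODE genes on GRCh37 and promoters from RefSeq on GRCh38.p14. Python 3.11.15, pandas 2.3.3, scipy 1.17.1 and matplotlib 3.10.9 were used.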

Additional observations from a re-analysis of the deposited data

How the results depend on the processing

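The 47 replication genes had a negative fold change in all 17 alternative fits, and FLI1 was lower in each. The other filters, eBayes without trend, the replicate block and median-ratio scaling could not change these signs. Over all genes, the balance turned from 522 lower and 700 higher to 689 and 415 without EWSR1::FLI1 low replicate 3. Counts past the limit moved. The genes past the limit were 1222 in both directions together. Lower were 18 of the replication list, 11 of the other replication genes, 9 of the G1/S genes and 0 of the mitosis genes. Of all genes tested, 3.37% fell. With no filter on low values these counts became 753, 8, 7, 5 and 0 (1.21% of all genes fell). With quantile normalization they were 1985, 33, 25, 10 and 8 (6.40% of all genes fell). With sample quality weights they were 4745, 42, 32, 13 and 24 (14.6%), and with limma-voom on recovered reads 1999, 31, 22, 11 and 9 (5.64%). Scaling by genes of mean FPKM 10 or more gave 2112, 32, 25, 9 and 12 (4.54%), and equal FPKM totals gave 2035, 34, 24, 10 and 11 (5.17%). These last scalings were chosen after seeing the data. They moved the median of all genes from -0.05 to 0.11 and 0.06, and the replication median from -1.139 to -0.927 and -1.004. The replication median minus that of all genes was -1.09, -1.04 and -1.06. A factor per library shifts all fold changes almost equally, so this difference could hardly move and is no test of the scaling. A mean FPKM of at least 1 gave 1 mitosis gene (4.67% of all genes fell). An adjusted p limit of 0.05 gave 3067, 38, 29, 11 and 21 (9.91% of all genes were lower). Leaving out one library at a time gave 475 to 2334, 1 to 33, 1 to 22, 4 to 11 and 0 to 22 (0.992% to 5.41% of all genes fell). The cause of these moves was not tested, except that leaving out a library reduces the samples.

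Whether samples of equal number belong together was not settled by the data. Their deviations correlated at 0.27, 0.09 and 0.12 across genes, while those of samples of unequal number ran from -0.29 to 0.19. The value of 0.19 was that of EWSR1::FLI1 high replicate 3 with EWSR1::FLI1 low replicate 2. With the replicate block 1702 genes passed. Lower among them were 34 replication genes, 22 other replication genes and 12 mitosis genes, where 5.07% of all genes tested fell. At this number of samples the 95% intervals of ORC3, ORC4, ORC5, RPA1 and TK1 include 0, and none of these 5 genes passed an adjusted p of 0.01 in any alternative, although TK1 reached 0.0191 and ORC3 0.0281 by limma without one of the libraries.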
